A study of Mus musculus with 56 samples.

Results

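Mouse liver tumours driven by MYC and NICD, the free intracellular part of the NOTCH1 receptor, were compared with healthy liver across the transcriptome. The comparison held 18 of the 26 bulk RNA-seq libraries of a series of 56 samples: the 12 tumours with AL51 or AL54 animal numbers, and all 6 healthy livers. The 8 tumours titled as males carry another number series and were left out. Of the 12 tumours 6 carried MYC, NICD and luc, a luciferase construct, and 6 carried MYC, NICD and lucOS. All animals were C57BL/6 mice listed as untreated, and plasmids were delivered by hydrodynamic tail vein injection, which pushes DNA into hepatocytes. The labels give the injection method for the healthy livers too, but no construct, and they give no age, no sex, no tumour size and no time after injection for any of the 18. Each title has its own animal number, so each library is taken as 1 animal, and replicates are numbered here in the order of the labels. RNA came from whole tissue. In bulk tissue, fewer cells of a type and less RNA per cell cannot be told apart.

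NOTCH receptors sit on the cell surface and are cut when a ligand on a neighbouring cell, such as Jagged1, pulls on them. The freed intracellular part enters the nucleus and binds RBPJ, a DNA-binding protein, which then switches on genes such as the HES and HEY repressors and the feedback inhibitor Nrarp. In the liver this pathway is known for turning hepatoblasts into bile duct cells, and in blood vessels for building the smooth muscle and pericyte coat, where NOTCH3 is the typical receptor. MYC pairs with MAX on E-boxes and is known for raising ribosome, nucleotide and glycolysis genes.

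The promoters of 3 NOTCH targets are shown because they rose most or were listed at 0 TPM in every healthy liver. They are RefSeq sequences of build GRCm38.p6, from 250 bases before to 50 bases after the start of the gene, 5′ to 3′ in the direction of the gene. The RBPJ core TGGGAA was searched on both strands, and capitals mark each match (TTCCCA is the same core on the other strand). The Hes5 window is chr4:154960673-154960972 on the plus strand, the Hey2 window chr10:30842734-30843033 on the minus strand and the Nrarp window chr2:25180508-25180807 on the plus strand.
Hes5: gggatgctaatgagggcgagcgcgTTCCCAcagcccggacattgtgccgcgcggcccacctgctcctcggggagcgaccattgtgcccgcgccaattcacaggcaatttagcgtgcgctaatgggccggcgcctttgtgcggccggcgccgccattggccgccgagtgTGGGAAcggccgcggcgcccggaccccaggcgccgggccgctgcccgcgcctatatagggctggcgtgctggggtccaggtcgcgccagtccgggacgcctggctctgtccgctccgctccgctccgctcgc
Hey2: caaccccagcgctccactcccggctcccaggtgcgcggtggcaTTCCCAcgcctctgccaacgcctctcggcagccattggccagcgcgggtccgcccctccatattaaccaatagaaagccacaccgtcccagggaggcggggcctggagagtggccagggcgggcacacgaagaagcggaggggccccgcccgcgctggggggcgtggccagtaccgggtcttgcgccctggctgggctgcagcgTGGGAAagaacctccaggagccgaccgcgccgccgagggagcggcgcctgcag
Nrarp: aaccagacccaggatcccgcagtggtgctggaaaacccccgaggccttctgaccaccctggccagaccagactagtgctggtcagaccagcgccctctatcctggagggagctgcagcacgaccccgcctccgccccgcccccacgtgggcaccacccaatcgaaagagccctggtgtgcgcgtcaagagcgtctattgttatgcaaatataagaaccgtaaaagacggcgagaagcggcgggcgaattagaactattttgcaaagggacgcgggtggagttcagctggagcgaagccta
Hes5 had 2 matches, starting 226 and 82 bases before the start of the gene. Hey2 had 2, starting 207 and 3 bases before it, and Nrarp had 0. Of the 8 tested NOTCH targets with a window in the table, 2 held the core (25%), against 27.5% of 10202 tested protein-coding genes and 25.6% of all 32851 windows. The longer core GTGGGAA, which contains the shorter one, was in 2 of the 8 targets (25%) and in 7.44% of the tested protein-coding genes. The windows of Notch3, Jag1 and Dtx1 held no match to TGGGAA. A match is a stretch of letters and not a shown binding site.

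Levels are TPM, transcripts per 1000000, as deposited by the authors, and the read depth behind them is unknown. Of 24034 genes with a usable name, 14829 reached 1 TPM in at least 6 of the 18 libraries and were tested with limma on log2(TPM + 1), so differences of genes with low TPM are understated. A gene could reach this filter in tumours alone or in healthy livers alone. Of the genes tested, 168 were listed at 0 in all healthy livers, against 12 listed at 0 in all tumours. At a Benjamini-Hochberg adjusted p under 0.05, 10662 genes (71.9%) were called higher and 2739 (18.5%) lower in tumours than in healthy liver. The median gene differed by 1.09 on the log2 scale, and the 10 most abundant genes held 20.6 to 24.6% of TPM in healthy livers against 8.18 to 11.7% in tumours. After scaling each library by its median ratio to the others the median gene differed by 0.06, and 6546 genes (44.1%) were called higher and 6114 (41.2%) lower. Quantile normalization gave 6812 (45.9%) and 5562 (37.5%). The 6546 had all been called higher before and the 2739 all stayed lower, while 2117 genes went from higher to lower. Below, "called" counts are for TPM as deposited unless the scaling is named, and a difference near 1.09 is that of an ordinary gene. List counts stand beside 71.9% higher and 18.5% lower among all genes, or 44.1% and 41.2% after median ratio scaling. MicroRNA genes held 1.72 to 1.93% of TPM in healthy livers and 6.08 to 8.47% in tumours. Xist, transcribed in females, lay between 50.8 and 188.6 TPM in all 18 libraries, and the Y-linked Ddx3y did not exceed 0.164 TPM. Healthy livers carry AL15 numbers (replicates 1 to 3) or PM5 numbers (4 to 6) and tumours AL51 or AL54 numbers, so number series and tissue cannot be told apart. Between lucOS and luc tumours 0 genes were called with limma, with 996 at an unadjusted p under 0.05 and a smallest adjusted p of 0.555. The tumours luc replicate 3 and lucOS replicates 1 and 3 stood apart from the other 9 for some genes, and values without them are given where they matter.

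NOTCH receptors were all higher in tumours. Notch1 lay at 3.19, 5.73 and 8.78 TPM (lowest, median and highest of 6 healthy livers) and at 305, 475 and 831 TPM in the 12 tumours. The groups did not overlap, as for 74.6% of all genes tested, and the difference was 6.27 ± 0.23 on the log2 scale (SE; limma adjusted p = 4.44e-15). RNA of the NICD construct and of the mouse's own Notch1 cannot be told apart in a level per gene. Notch3, which the construct does not encode, lay at 0.340, 0.457 and 0.588 TPM in healthy livers and at 300, 347 and 428 TPM in tumours. All 12 tumours exceeded all healthy livers, by 7.91 ± 0.07 (SE, adjusted p = 3.25e-23), the larger difference of the 2 genes. Notch4, known mainly from endothelium, rose by 2.08 ± 0.17. Notch2, the receptor best known from bile duct development, was higher by 1.31 ± 0.17, but differed by 0.15 after median ratio scaling (adjusted p = 0.412).

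Of the 6 ligands and ligand-like genes tested, 5 were higher and 1 was lower, also after scaling. Jag1, the Jagged ligand mutated in Alagille syndrome, lay at 1.42, 1.80 and 1.97 TPM in healthy livers and at 102, 156 and 208 TPM in tumours. Its groups did not overlap and it rose by 5.72 ± 0.14 (adjusted p = 1.36e-17). Dlk1, a fetal non-canonical ligand, went from 0.0842 to 0.409 TPM to 21.2 to 215 TPM, a rise of 5.97 ± 0.40. Dll4, the Delta ligand of sprouting endothelium, rose by 2.40 ± 0.20, and Dll1 fell by 2.01. Dll3 was listed at 0 in all 6 healthy livers and at 0.899 to 3.24 TPM in tumours. Dlk2 did not reach the filter and had a tumour median of 0.390 TPM.

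Among NOTCH targets 9 of 11 tested genes were higher and 1 was lower, against 71.9% and 18.5% of all genes, with a median difference of 3.94. Nrarp lay at 0.779, 1.2 and 1.87 TPM in healthy livers and at 1224, 1502 and 1675 TPM in tumours. It rose by 9.37 ± 0.09 (adjusted p = 1.60e-22), and the highest tumour had only 1.37 times the TPM of the lowest. Hey2, a repressor of the cardiovascular HEY family, lay at 0.0800, 0.171 and 0.291 TPM in healthy livers and at 147, 202 and 222 TPM in tumours, a rise of 7.41 ± 0.07. Hes5, the HES gene best known from neural progenitors, was listed at 0 in all 6 healthy livers and at 7.09, 14.4 and 41.6 TPM in tumours. These are the 2 genes whose promoter windows hold the RBPJ core.
Hey1, a repressor related to Hey2, rose by 4.87 ± 0.38, Dtx3 of the Deltex family by 5.55 ± 0.20, Gmpr by 3.96 ± 0.22, Dtx1 by 2.55 ± 0.30 and Tspan15 by 1.62 ± 0.17. Hes1, the HES gene of the biliary lineage, lay at 4.51, 8.12 and 34.5 TPM in healthy livers and at 35.5, 47.2 and 151 TPM in tumours. Healthy replicate 4 came close to the lowest tumour, but the groups did not overlap, and the rise was 2.31 ± 0.32 (adjusted p = 1.78e-06). Hes6, a HES member known to counteract Hes1, fell by 2.50 ± 0.15. Id3 did not pass as deposited (0.36, adjusted p = 0.246), and was lower by 0.87 after median ratio scaling. Without healthy replicate 4 it was called higher (0.68, adjusted p = 0.0102), and without healthy replicate 6 it differed by 0.20. Heyl and Hes4 were not found by name in the table, and Ptcra, a T cell gene, stayed at or below 0.287 TPM in every library.

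**Figure D1:**
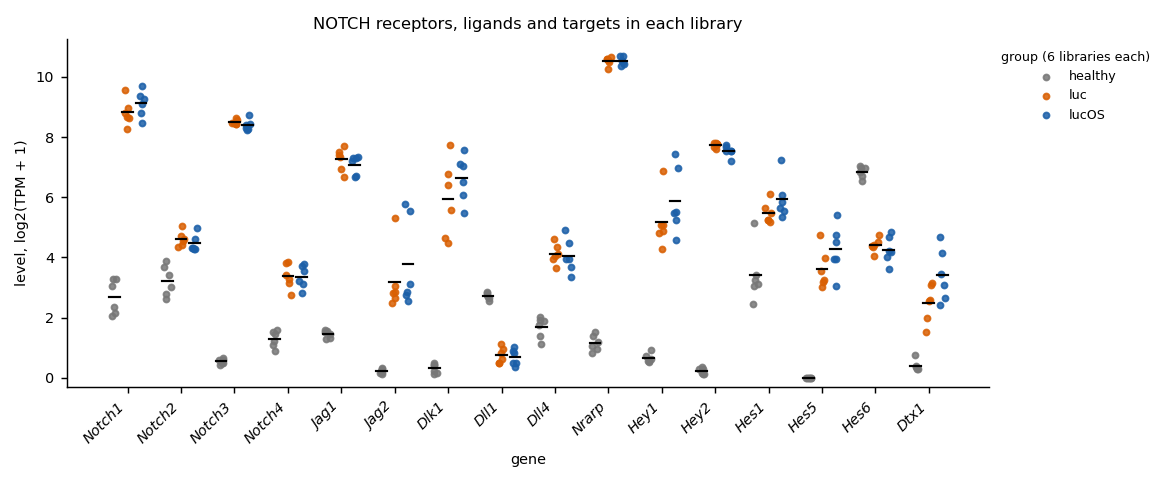
Level of 16 NOTCH pathway genes as log2(TPM + 1) in each of the 18 libraries, with bars at the mean of each group of 6. All 12 tumours lie above all 6 healthy livers for 14 of the genes, among them Notch1 and Notch3, and below them for Dll1 and Hes6. Among all genes tested 61.4% lie above in this way and 13.2% below. The genes were picked for the figure, and Id3 and Lfng, whose groups overlap, are among those not shown.

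The machinery that cuts, modifies and relays NOTCH was called much as all genes were. Of its 21 genes 14 were called higher and 5 lower, near the shares of all genes (71.9% and 18.5%). Their median was 0.92, beside 1.09 for all genes. After median ratio scaling 8 were higher, 10 lower and the median was -0.28. The largest rises were those of Numbl, a relative of the NOTCH inhibitor Numb (3.65 ± 0.20), of Maml2, a coactivator of the RBPJ complex (2.58 ± 0.12), and of Aph1b, a γ-secretase subunit (2.38 ± 0.13). Lfng, a sugar transferase that tunes ligand choice, did not pass (0.64, adjusted p = 0.240), and differed by -0.35 after scaling (adjusted p = 0.504). Its tumour median of 3.35 TPM lay beside a healthy median of 3.29 TPM, and 3 tumours reached 19.3 to 46.3 TPM.

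Myc itself was higher in tumours, with a smaller difference than Notch1. It lay at 2.25, 4.81 and 7.71 TPM in healthy livers and at 19, 27.6 and 33.4 TPM in tumours, a difference of 2.29 ± 0.17 (adjusted p = 2.98e-10) that stayed at 1.19 after scaling. Construct RNA and RNA of the mouse gene cannot be told apart here either. Of the 11 tested genes of the MYC network, 9 were called higher and 1 lower, and 6 and 3 after scaling. The partner Max rose by 1.85 ± 0.07. The repressors that compete for Max were called higher as deposited: Mnt (1.92), Mga (2.00), Mxi1 (1.91), Mxd3 (1.29), Mxd1 (1.01) and Mxd4 (0.47). After median ratio scaling Mnt, Mga and Mxi1 remained higher, Mxd3 differed by 0.08 (adjusted p = 0.521) and Mxd1 by -0.04, and Mxd4 was lower by 0.76. Mlxip, a glucose-sensing relative, rose by 2.05, and its partner Mlx fell by 0.37. Mycl did not pass as deposited (-0.35, adjusted p = 0.182) and was called lower after scaling (-1.29) and without luc replicate 3 (-0.46, adjusted p = 0.0486), and Mycn stayed at or below 2.06 TPM. In these promoter windows the E-box CACGTG was found in 4 of 10 network genes and in 11.5% of the tested protein-coding genes.

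Genes that start and copy DNA rose almost as a block, and so did cell cycle regulators, inhibitors among them. Of 23 replication origin and fork genes 22 were called higher, with a median of 3.45, among them the helicase subunits Mcm2 (4.87 ± 0.11) and Mcm5 (4.83 ± 0.10) and the GINS subunit Gins2 (4.53 ± 0.09). All 19 tested genes of chromatin and DNA methylation were higher (median 2.31). Their list holds the Tet and Hdac genes too and is not limited to writers. The largest rises were those of Uhrf1, which brings DNA methylation to replicated DNA (5.25 ± 0.10), Hells (4.38) and the maintenance methyltransferase Dnmt1 (3.86). All 19 genes of a list of cyclins, CDK genes, CDK inhibitors, Rb1 and E2F genes were higher, 18 of them after scaling.
The 3 largest rises in that last list were inhibitors. Cdkn2a, whose symbol covers both p16 and p19, lay at 0, 0.228 and 0.459 TPM in healthy livers and at 7.88, 33.4 and 133 TPM in tumours (4.74 ± 0.35, adjusted p = 1.79e-10). Cdkn1a, which encodes p21, lay at 1.44, 6.86 and 29.5 TPM in healthy livers and at 88.4, 253 and 473 TPM in tumours (4.95 ± 0.43). Cdkn1c, the imprinted p57 gene, rose by 4.68 ± 0.23. No tumour overlapped a healthy liver for any of the 3. Of 18 targets of p53 15 were called higher and 1 lower (median 2.49), and 13 and 3 after scaling. Phlda3, a p53-induced inhibitor of AKT, rose by 6.16 ± 0.17 and the death receptor gene Eda2r by 3.74 ± 0.30. Among 19 survival and death regulators 12 were higher and 5 lower, beside 71.9% and 18.5% of all genes. Their median was 0.82, beside 1.09 for all genes. After scaling 5 were higher and 9 lower with a median of -0.19. The proliferation-linked inhibitor Birc5 (4.26 ± 0.09), the pore-forming Bax (3.39 ± 0.12) and the necroptosis kinase Ripk3 (3.16 ± 0.18) rose most in that list, and these 3 stayed higher after scaling.

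**Figure D2:**
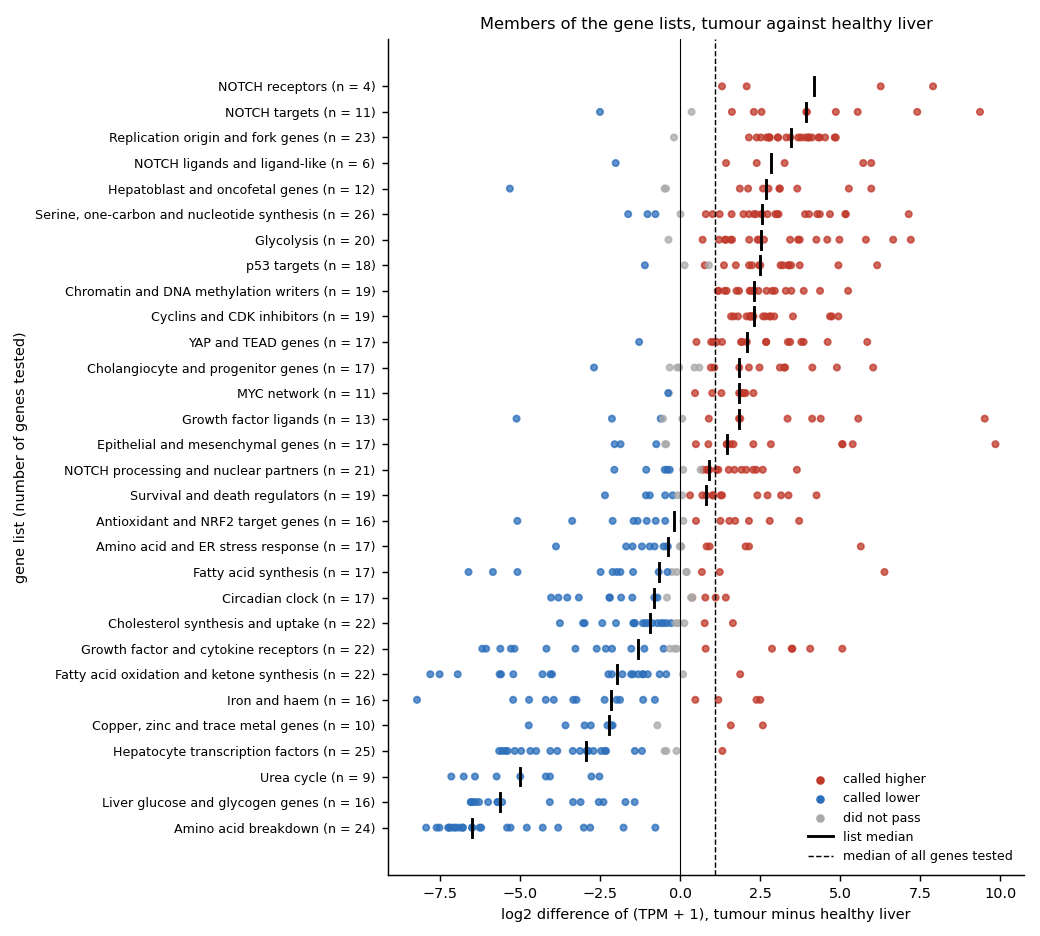
Log2 difference of (TPM + 1) between the 12 tumours and the 6 healthy livers for each tested member of 30 gene lists, coloured by its call, with the list median as a black bar. Medians run from -6.50 for amino acid breakdown to 4.18 for NOTCH receptors, and the dashed line marks the median of all genes tested at 1.09.

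The transcription factors that define hepatocytes were low in tumours. Of 25 such genes 21 were called lower and 1 higher, and 24 lower and 0 higher after scaling. Hnf4a, the central regulator of the adult hepatocyte, lay at 248, 391 and 494 TPM in healthy livers and at 1.93, 6.79 and 33.2 TPM in tumours. The groups did not overlap, and it fell by 5.56 ± 0.42 on the log2 scale (adjusted p = 3.16e-10). Mlxipl, the carbohydrate sensor of lipid synthesis, fell by 5.65 ± 0.30, and Creb3l3, a fasting-induced factor, by 5.46 ± 0.33. Tbx3 did not pass as deposited (-0.48, adjusted p = 0.472) and was called lower after scaling (-1.57, adjusted p = 0.0216), and its tumours spread from 0.546 to 39.0 TPM.
The 8 hepatocyte markers fell with them. Alb, the albumin gene, lay at 68882, 86038 and 115532 TPM in healthy livers and at 134, 630 and 3267 TPM in tumours. The summed level of the 8 markers ranged from 146200 to 194400 TPM in healthy livers and from 554 to 9567 TPM in tumours. The 8 largest falls, by the rule set out in the processing section, were all in genes of hepatocyte metabolism or secretion: Mup3 (-10.82 ± 0.65), Hamp2 (-9.69), Fabp1 (-9.50), Car3 (-9.36), Inmt (-9.31), Cyp2a5 (-9.21), Cyp2c69 (-9.0) and Ces3a (-8.77). Mup3, Cyp2a5 and Cyp2c69 belong to families of near-identical copies, so their reads may be shared.

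Metabolism specific to liver fell list by list. All 16 liver glucose and glycogen genes were called lower (median -5.63), among them Pck1 of gluconeogenesis, which lay at 2048 to 4787 TPM in healthy livers and at 3.91 to 246 TPM in tumours. All 9 urea cycle genes fell (median -4.99), with Otc at -7.15 ± 0.35, Cps1 at -6.76 ± 0.54 and Ass1 at -6.41 ± 0.37. All 24 genes of amino acid breakdown fell, with the lowest median of the 30 lists (-6.50), led by Hpd of tyrosine breakdown (-7.93), Haao of tryptophan breakdown (-7.61) and Gnmt, which uses up S-adenosylmethionine (-7.52). Of 22 genes of fatty acid oxidation and ketone synthesis 20 fell and 1 rose, led by Cyp4a10 (-7.80), Acaa1b (-7.51) and Cyp4a14 (-6.95). No group of tumours overlapped healthy liver for the genes named here.

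Most genes of glycolysis and of serine and nucleotide synthesis were higher. Of 20 glycolysis genes 19 were called higher and 0 lower, and 15 and 1 after scaling. Pkm lay at 9.71, 11.4 and 12.7 TPM in healthy livers and at 1665, 1819 and 2040 TPM in tumours (7.21 ± 0.06, adjusted p = 1.53e-23). The lactate exporter Slc16a3 rose by 6.66 ± 0.17 and the glucose transporter Slc2a3 by 5.81 ± 0.20, while Hk3 did not pass as deposited (-0.36, adjusted p = 0.0599). Hk3 was called lower after median ratio scaling (-1.26, adjusted p = 3.71e-07) and quantile normalization (-1.56), and without any 1 of luc replicate 4 or lucOS replicates 3 or 5 (-0.40 to -0.42). Of 26 genes of serine, one-carbon and nucleotide synthesis 22 were higher and 3 lower, and 19 and 5 after scaling. Phgdh, the first enzyme of serine synthesis, lay at 0.272, 0.512 and 0.626 TPM in healthy livers and at 143, 206 and 300 TPM in tumours (7.14 ± 0.13). Psat1, the next enzyme towards serine (5.18 ± 0.10), and the mitochondrial folate enzyme Mthfd2 (5.17 ± 0.08) followed.

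Within pairs of related genes the first gene named held a larger share of the pair's TPM in tumours than in healthy livers. The share is taken inside each library, so no scaling of libraries can alter it. Pkm held 2.80 to 8.68% of the TPM of Pkm and Pklr, the muscle and liver pyruvate kinase genes, in healthy livers, and 99.77 to 99.99% in tumours. The mean share went from 6.13% ± 2.11 (SD, n = 6) to 99.9% ± 0.0723 (SD, n = 12). The glucose transporter Slc2a1 against Slc2a2 went from 5.10% ± 1.71 to 98.6% ± 1.15. The S-adenosylmethionine synthetase gene Mat2a against Mat1a went from 2.41% ± 0.50 to 87.5% ± 9.93.
The desaturase Scd2 against Scd1 went from 0.227% ± 0.089 to 93.3% ± 3.59, and the transferrin receptor Tfrc against Tfr2 from 9.70% ± 2.56 to 95.5% ± 3.89. Smaller shifts came from genes that both groups used. Acaca, the cytosolic acetyl-CoA carboxylase gene, went from 50.8% ± 11.1 to 85.2% ± 5.01 against Acacb. That share rested on a fall of Acacb by 2.11 ± 0.32, while Acaca did not pass as deposited (0.21, limma adjusted p = 0.127) and was lower by 0.99 after scaling. Shmt2, the mitochondrial serine hydroxymethyltransferase gene, went from 50.6% ± 3.61 to 84.6% ± 2.63 against Shmt1. In the 7 pairs described here the 12 tumours lay above the 6 healthy livers, and each had p = 5.39e-05 (two-sided exact permutation test over the 18 libraries, the smallest it can give, and 5.39e-05 adjusted over the 10 pairs compared). The pairs were chosen with earlier results of these data known, so these p-values are not independent support. For Shmt2 and Shmt1 the share rested on a fall of Shmt1 by 1.62 ± 0.19 that scaling did not turn, while Shmt2 was higher by 0.80 ± 0.11 as deposited and lower by 0.44 after scaling.

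**Figure D3:**
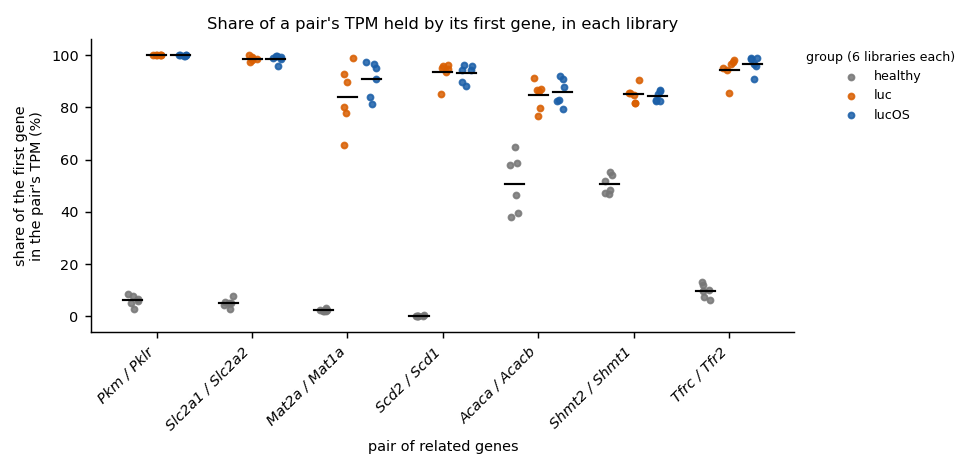
Share of a pair's TPM held by the first gene named, in percent, in each of the 18 libraries, with bars at group means of 6. Healthy livers lie at or below 13.0% for 5 pairs and between 37.9 and 64.7% for the pairs Acaca / Acacb and Shmt2 / Shmt1, and no tumour lies below 65.6%.

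Most cholesterol, fatty acid synthesis and iron genes were lower. Of 22 cholesterol genes 17 were lower and 2 higher (21 and 1 after scaling), with falls of Sc5d, a late synthesis enzyme (-3.75 ± 0.12) and of Insig1, a sterol sensor partner (-2.98 ± 0.16). Of 17 fatty acid synthesis genes 10 were lower and 3 higher, and 15 and 2 after scaling. Thrsp, a lipogenic protein gene, fell by 6.61 ± 0.28 and Scd1 by 5.85 ± 0.29, while Scd2 rose by 6.39 ± 0.10. Acly, which makes cytosolic acetyl-CoA, did not pass as deposited (-0.25, adjusted p = 0.0614). It was called lower after median ratio scaling (-1.49, adjusted p = 1.46e-09) and after quantile normalization (-0.43), and without any 1 of healthy replicate 3, luc replicates 3 or 4 or lucOS replicate 1 (-0.27 to -0.32).
Of 16 iron and haem genes 12 were lower and 4 higher, and 13 and 2 after scaling. Hamp, the gene of the iron hormone hepcidin, lay at 1418 to 7662 TPM in healthy livers and at 1.22 to 244 TPM in tumours (-8.22 ± 0.76). Tfr2 fell by 5.21 ± 0.35 and the transferrin gene Trf by 4.72 ± 0.54, while Tfrc, the receptor that takes up transferrin, rose by 2.51 ± 0.19. Of 10 trace metal genes 7 fell and 2 rose, the falls led by the selenoprotein carrier Sepp1 (-4.73), Gpx1 (-3.58) and the metallothionein Mt2 (-2.98). Of 16 antioxidant and NRF2 target genes 8 were lower and 7 higher, and 10 and 5 after scaling. Catalase, Cat, fell by 5.08 ± 0.15 and the NRF2 target Osgin1 by 3.37 ± 0.29, while G6pdx, which makes NADPH, rose by 3.72 ± 0.11.

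Of 17 genes of the amino acid and ER stress response 5 were higher and 8 lower, and 3 and 14 after scaling. Asns, asparagine synthetase, went from 0.340 to 1.08 TPM in healthy livers to 68.3 to 104 TPM in tumours (5.65 ± 0.09), and Sesn2 rose by 2.16 ± 0.25, while Herpud1 of ER-associated degradation fell by 3.88 ± 0.20. Of 17 clock genes 10 were lower and 4 higher (14 and 1 after scaling), with falls of the clock output factors Hlf (-3.80) and Dbp (-3.52). The hour of collection is not in the labels, so a difference in hour cannot be told apart from tissue. Of 22 growth factor and cytokine receptors 13 were lower and 6 higher, and 16 and 5 after scaling, with the asialoglycoprotein receptor genes Asgr1 (-6.18) and Asgr2 (-6.06) and the glucagon receptor gene Gcgr (-5.62) as the largest falls.

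Of 13 growth factor ligands tested, 8 were higher and 3 lower, beside 71.9% and 18.5% of all genes, and 7 and 5 after scaling. Igf2, the fetal insulin-like growth factor, lay at 0.976, 2.58 and 4.50 TPM in healthy livers and at 1727, 2549 and 3499 TPM in tumours (9.52 ± 0.23, adjusted p = 1.67e-17). Igf1, the adult liver's own factor, fell by 5.11 ± 0.23 from 134 to 200 TPM to 1.71 to 9.40 TPM. Pdgfb, the ligand that recruits pericytes, rose by 5.57 ± 0.13. H19, the imprinted RNA next to Igf2, lay at 9.90 to 20.2 TPM in healthy livers and at 4858 to 13060 TPM in tumours (9.04 ± 0.20). Mir675, a microRNA gene inside H19 that was chosen after its values were seen, was listed at 31.4 to 60.5 TPM and 12300 to 32650 TPM, and reads of the 2 overlapping genes cannot be told apart.
Of 12 tested hepatoblast and oncofetal genes 9 were higher and 1 lower, beside 71.9% and 18.5% of all genes, and 8 and 2 after scaling. Igf2bp1, Lin28a, Lin28b, Hmga2 and Sall4 did not reach the filter. Plac1, counted as tested and listed at 0 in all healthy livers, reached it through tumours alone. Gpc3, the glypican of fetal liver and hepatocellular carcinoma, lay at 0.478, 0.578 and 1.46 TPM in healthy livers and at 15.7, 68.8 and 128 TPM in tumours (5.28 ± 0.31). Ahsg, the fetuin gene that adult hepatocytes also secrete, fell by 5.32 ± 0.52. Afp, the alpha-fetoprotein gene, did not pass (-0.44, adjusted p = 0.591). It lay at 65.9 and 74.0 TPM in luc replicates 5 and 4 and at or below 1.37 TPM in the other 10 tumours, under the healthy range of 1.80 to 4.66 TPM.

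All 6 cholangiocyte markers were called higher, also after scaling, and their summed level went from 27.9 to 35 TPM in healthy livers to 357 to 1151 TPM in tumours. Krt19, a duct keratin, lay at 0.701, 1.19 and 1.77 TPM in healthy livers and at 72.0, 118 and 324 TPM in tumours (6.03 ± 0.32, adjusted p = 1.20e-12). Spp1, osteopontin, rose by 4.13 ± 0.23, the adhesion gene Epcam by 3.28 and the biliary factor Sox9 by 2.15. In the wider list of 17 tested cholangiocyte and progenitor genes 11 were higher and 1 lower, beside 71.9% and 18.5% of all genes, and 10 and 4 after scaling. Sox4, a progenitor factor gene, rose by 4.90 ± 0.12. Of 17 YAP and TEAD genes 16 were higher and 1 lower (13 and 2 after scaling), with the largest rises in the partner Tead2 (5.85 ± 0.14), the receptor kinase gene Axl (4.61 ± 0.14) and Tgfb2 (3.86 ± 0.08). Of 17 epithelial and mesenchymal genes 12 were higher and 3 lower, near the shares of all genes (71.9% and 18.5%), and 9 and 6 after scaling. Vim, vimentin, rose by 5.40 ± 0.21, while Krt8 of simple epithelia did not pass as deposited (-0.43, adjusted p = 0.156) and was called lower after scaling (-1.67, adjusted p = 2.35e-05).

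The largest rise of all named genes was that of Acta2, the smooth muscle actin gene. It lay at 0.188, 0.712 and 2.45 TPM in healthy livers and at 605, 1777 and 2684 TPM in tumours (9.86 ± 0.25, adjusted p = 2.71e-17). The other large rises held Akr1cl, listed at 0 in all 6 healthy livers and at 272 to 1560 TPM in tumours, Crispld2 (9.17 ± 0.17), Olfml2a (8.93 ± 0.09) and Cox4i2 (8.71 ± 0.25), a cytochrome oxidase subunit gene known from lung and vascular cells. Crispld2 and Olfml2a encode secreted proteins.
Some genes known from the coat of blood vessels were abundant beside Acta2, but no list of such genes was set in advance. Pdgfrb, the receptor of pericytes and stellate cells, lay at 1.67, 2.12 and 2.65 TPM in healthy livers and at 126, 176 and 247 TPM in tumours (5.89, adjusted p = 5.07e-18). Rgs5, a pericyte gene, lay at 6.12, 10.3 and 15.5 TPM in healthy livers and at 497, 885 and 2476 TPM in tumours (6.58). Tagln, a smooth muscle actin-binding protein gene, rose by 5.08 ± 0.26. The following genes were chosen after their values were seen, so they are given as values only. Smooth muscle myosin, Myh11, lay at 0.411 to 1.47 TPM in healthy livers and at 306 to 691 TPM in tumours, and Casq2, a calcium store gene, at 0 to 0.155 TPM and at 307 to 593 TPM. The pericyte proteoglycan gene Cspg4 lay at 0.0129 to 0.0438 TPM in healthy livers and at 93.7 to 140 TPM in tumours, and the factor gene Foxs1 at 0.0299 to 0.265 TPM and at 76.7 to 124 TPM. The smooth muscle coactivator gene Myocd stayed at or below 0.00784 TPM in healthy livers and reached 3.98 to 35.1 TPM in tumours, while its partner Srf went from 6.69 to 7.30 TPM to 47.1 to 61.5 TPM. With Acta2, Notch3 and Hey2, each of these genes was higher in every tumour than in every healthy liver, as were 61.4% of all genes tested. Because genes were picked by their values, this says nothing about vessel coat genes as a set. The part of a changed mix of cells in these differences was not tested.

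Other cell type markers gave a mixed picture beside these values. Of 10 stellate cell and fibroblast markers, which include Pdgfrb and Rgs5, 7 were higher and 2 lower, near the shares of all genes (71.9% and 18.5%), and 5 and 4 after scaling. Their sum went from 134 to 149 TPM to 817 to 2869 TPM. The collagen gene Col1a1 rose by 4.44, while Lrat, the retinol store enzyme of quiescent stellate cells, fell by 2.16 and the fibroblast proteoglycan gene Dcn by 2.12. Of 8 markers of general endothelium 4 were higher and 0 lower, among them Pecam1 (1.65), and after scaling 3 were higher and 4 lower, with the median going from 0.52 to -0.49. Of 8 markers of liver sinusoidal endothelium 6 were lower, among them Dnase1l3 (-3.19), and all 8 after scaling. All 8 Kupffer cell markers were lower, with Clec4f at 58.8 to 111 TPM in healthy livers and at 0 to 19.4 TPM in tumours. Their sum was 252 to 410 TPM in healthy livers and 16.9 to 103 TPM in tumours. Of 7 tested macrophage and monocyte markers 2 were higher and 1 lower, and 0 and 5 after scaling. Neutrophil markers summed to 2.22 to 7.2 TPM in healthy livers and 0.906 to 24.4 TPM in tumours, with no member called. T cell markers summed to 2.31 to 5.28 TPM in healthy livers and 1.73 to 13.5 TPM in tumours, B cell markers to 1.98 to 10.5 TPM and 0.830 to 2.90 TPM, and adipocyte markers to at most 0.336 and 9.75 TPM. Red cell markers summed to 273 to 548 TPM and 290 to 2330 TPM, and 3 of 5 tested were higher as deposited and none after scaling, while Alas2, the haem synthesis gene of red cells, was lower in both (-1.31 and -2.47). Pancreas markers summed to 18.6 to 39.6 TPM in healthy livers and 5.65 to 16.5 TPM in tumours.
Of the skeletal muscle markers 3 of 3 tested were higher. Tnnt3, a fast troponin gene, lay at 0.0349, 0.432 and 0.891 TPM in healthy livers and at 46.2, 370 and 601 TPM in tumours, and Acta1, skeletal actin, rose by 4.21. The fast myosins that define that muscle, Myh1 and Myh4, did not exceed 0.042 TPM in any tumour.

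**Figure D4:**
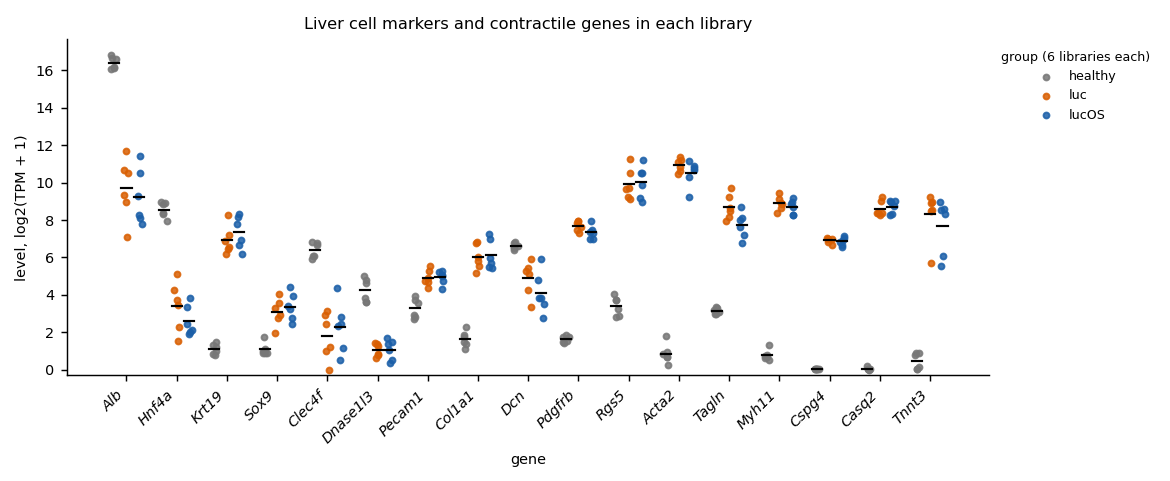
Level of 17 liver cell markers and contractile genes as log2(TPM + 1) in each of the 18 libraries, with bars at group means of 6. Alb and Hnf4a lie lower in all 12 tumours, and Pdgfrb, Rgs5, Acta2, Myh11, Cspg4 and Casq2 lie higher in all 12 than in any healthy liver.

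The tumours were nearly alike for some of these genes and far apart for others. The highest tumour had 1.22 times the TPM of the lowest for Pkm, 1.37 times for Nrarp, 1.43 times for Notch3 and 2.73 times for Notch1. The same ratio was 4.44 for Acta2, 17.2 for Hnf4a, 24.3 for Alb and 643 for Afp. Summed hepatocyte markers were highest in luc replicate 5 (9567 TPM) and lucOS replicate 6 (7923 TPM) and lowest in luc replicate 6 (554 TPM).
A further pattern was shared by 3 tumours and crossed both constructs and both number series: luc replicate 3 and lucOS replicate 1 with AL51 numbers and lucOS replicate 3 with an AL54 number. The genes that show it were chosen after their values were seen and have no test here. In these 3 libraries the cyclin gene Ccnd2 lay at 90.0, 89.0 and 119 TPM, in that order, against 4.24 to 23.8 TPM in the other 9 tumours. The fetal mRNA-binding protein gene Igf2bp2 lay at 27.5, 29.5 and 33.4 TPM against 0.565 to 8.21 TPM. The placental gene Plac1 lay at 36.4, 36.6 and 53 TPM against 0.121 to 9.15 TPM, and the fetal growth factor gene Fgf15 at 55.8, 42.7 and 88.1 TPM against 1.29 to 11.1 TPM, both listed at 0 in all healthy livers. The NOTCH genes Jag2 (38.2, 46.0 and 53.8 TPM against 4.65 to 7.65), Lfng (19.3, 22.5 and 46.3 TPM against 1.48 to 5.25) and Hey1 (116, 123 and 171 TPM against 18.2 to 44.5) were highest there too. Tnnt3 was lowest there, at 52.0, 67.6 and 46.2 TPM against 324 to 601 TPM.
Nrarp (1310 to 1563 TPM in the 3, 1224 to 1675 TPM in the other 9) and Notch1 did not set them apart. Over the 14829 genes, the deviations of each tumour from the mean of the 12 correlated at r = 0.49, 0.44 and 0.33 within these 3, which ranked 1, 2 and 4 among the 66 pairs of tumours. The pair of luc replicates 1 and 2, outside the 3, ranked 3 (r = 0.40). These values are a description of libraries chosen after the data were seen, and deviations from a shared mean lean below 0. Without the 3 libraries 10624 genes were called higher and 2772 lower, Jag2 rose by 2.58 in place of 3.27, Igf2bp2 by 1.00 in place of 1.87, and Ccnd2 by 1.48 in place of 2.30. As deposited Igf2bp2 passed with all 12 tumours (adjusted p = 0.0139), but not after median ratio scaling (1.30, adjusted p = 0.0603), and Ccnd2 did not pass after that scaling either (1.25, adjusted p = 0.0532).

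**Figure D5:**
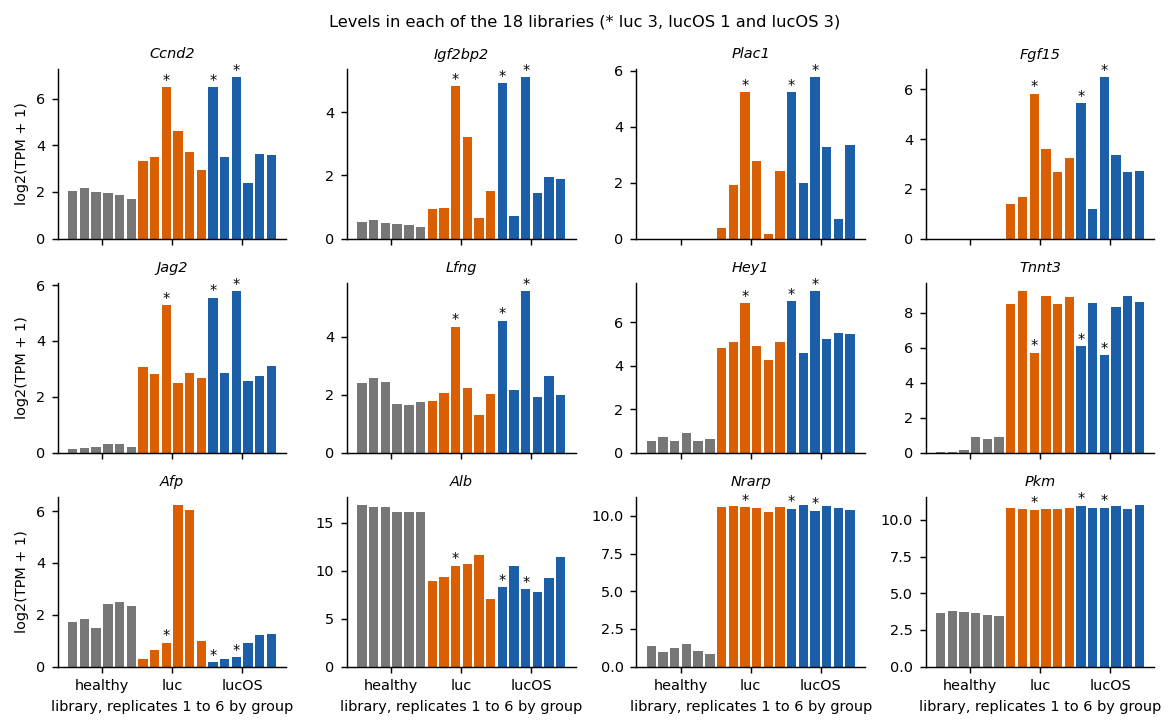
Level of 12 genes as log2(TPM + 1) in each of the 18 libraries, replicates 1 to 6 in each group, with asterisks on luc 3, lucOS 1 and lucOS 3. Ccnd2, Igf2bp2, Plac1, Fgf15, Jag2, Lfng and Hey1 are highest and Tnnt3 is lowest in these 3 tumours, Afp is high in luc 4 and 5 only, and Nrarp and Pkm are level across the 12.

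The constructs were each set against the same 6 healthy livers. Luc tumours had 10467 genes called higher and 2679 lower (70.6% and 18.1%), and lucOS tumours 10462 and 2641 (70.6% and 17.8%). Notch1 averaged 469 ± 152 TPM in luc and 576 ± 167 TPM in lucOS tumours (SD, n = 6 each), and Myc 26.4 and 26.8 TPM. The difference of lucOS minus luc was 0.30 ± 0.26 for Notch1 (SE, adjusted p = 0.862), which does not show that the constructs act alike.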

How the data were processed

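Total RNA of 6 healthy livers and 12 liver tumours was extracted with Trizol, DNase-treated, cleaned on RNeasy columns and made into TruSeq libraries, per the labels' protocols. The authors deposited 1 table of TPM (transcripts per 1000000) for 26 bulk libraries, and every one of the 18 columns used sums to 1000000. Build mm10, TopHat2, featureCounts and DESeq2 are named in the submitters' processing notes, without versions or roles. The formula behind TPM, the strand setting and the read depth are unknown here, so no counting interval can be given, and the number of libraries sets the precision.

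Of 24063 genes in the table, 27 with names turned into dates and 2 rows sharing a name were left out. From the deposited TPM, log2(TPM + 1) was fitted for genes with at least 1 TPM in at least 6 of 18 libraries with limma 3.58.1 (trend and robust empirical Bayes, R 4.3.3), with 3 groups and the contrast of the mean of luc and lucOS minus healthy. P-values are two-sided with Benjamini-Hochberg adjustment over all genes tested, called under 0.05. Shares within pairs of genes were compared by exact permutation of libraries in Python 3.11.15 with numpy 2.4.6. Tables and figures were made with pandas 2.3.3 and matplotlib 3.10.9. The fitting code was tested on simulated data. Labels carry no replicate numbers, nothing besides animal numbers says how animals were housed or collected, and p-values measure the spread between these libraries.

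The libraries, gene lists, marker lists and pairs were chosen with earlier results of these data known. Genes with values of their own include the 8 largest rises and the 8 largest falls. These hold after scaling, with at least 5 TPM in the higher group and no overlap. Predicted genes, pseudogenes, microRNA, small nucleolar and small nuclear RNA genes and receptor segments were left out of that ranking. Also given are up to 3 called members of each list, up to 2 members of each list that did not pass (most of which are given only within counts), NOTCH and MYC list members, and the genes of the pairs. Some genes and 3 of the 10 pairs are not reported here. Other genes are named as chosen after their values were seen. Alternatives were median ratio scaling, quantile normalization, a pseudocount of 0.1, no filter and a filter of 5 TPM, array weights, totals without small RNA genes and the top 50 healthy genes, a fit of 2 groups, each number series alone and leaving out each library. Leaving out the 3 tumours that stood apart was added after seeing the data. Promoter windows were matched by gene symbol to a RefSeq table of GRCm38.p6.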

Additional observations from a re-analysis of the deposited data

Results flagged for a closer look

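In groups of 6 libraries, a value was singled out where its gap to the nearest of the others exceeded Dixon's critical share of the group's range on the log2(TPM + 1) scale, or of the share. Chance singles out about 1 in 20 groups. Of 483 groups looked at, 36 (7.45%) had such a library, 14 in healthy livers, 14 in luc and 8 in lucOS tumours. Healthy replicate 4 stood apart for Crispld2 (0.492 TPM, nearest other library 0.276), Numbl (0.985 TPM, nearest other library 0.606), Hes1 (34.5 TPM, nearest other library 9.73) and Dtx1 (0.678 TPM, nearest other library 0.319). The same library stood apart for Sox9 (2.3 TPM, nearest other library 1.15), Thrsp (454 TPM, nearest other library 1446), Myh11 (1.47 TPM, nearest other library 0.739) and Casq2 (0.155 TPM, nearest other library 0.0315). Luc replicate 3 stood apart for Jag2 (38.2 TPM, nearest other library 7.3), Dlk2 (4.17 TPM, nearest other library 0.404), Lfng (19.3 TPM, nearest other library 3.66) and Hey1 (116 TPM, nearest other library 32.8). The same library stood apart for Mnt (12.2 TPM, nearest other library 23), Shmt1 (22.2 TPM, nearest other library 48.9), Shmt2 (214 TPM, nearest other library 285) and Tnnt3 (52 TPM, nearest other library 360.1). This tumour is 1 of the 3 that share high Jag2, Lfng and Hey1 and low Tnnt3. The other 2 are lucOS replicates 1 and 3. LucOS replicate 6 stood apart for Hamp2 (11.9 TPM, nearest other library 1.26), Mga (14.8 TPM, nearest other library 17.5), Sc5d (40.5 TPM, nearest other library 28.7) and Eda2r (3.44 TPM, nearest other library 17.1). The same library stood apart for the share of Tfrc against Tfr2 (90.9%, nearest other library 96%). Luc replicate 5 stood apart for Cyp2c69 (1.39 TPM, nearest other library 0.357), Mxd4 (101 TPM, nearest other library 79.1), the share of Scd2 against Scd1 (85.3%, nearest other library 93.6%) and the share of Tfrc against Tfr2 (85.5%, nearest other library 94.3%). Healthy replicate 2 stood apart for Gins2 (2.23 TPM, nearest other library 1.6), Scd2 (2.75 TPM, nearest other library 2.3) and Birc5 (1.91 TPM, nearest other library 1.13). LucOS replicate 2 stood apart for Cyp4a10 (6.06 TPM, nearest other library 1.6) and the share of Slc2a1 against Slc2a2 (95.8%, nearest other library 98.6%). Healthy replicate 1 stood apart for Phlda3 (2.27 TPM, nearest other library 1.51) and Cspg4 (0.0438 TPM, nearest other library 0.0201). Healthy replicate 3 stood apart for Gpc3 (1.46 TPM, nearest other library 0.61). Luc replicate 6 stood apart for Insig1 (21.1 TPM, nearest other library 29.2). LucOS replicate 5 stood apart for Asns (68.3 TPM, nearest other library 88.9). Luc replicate 4 stood apart for Ddx3y (0.164 TPM, nearest other library 0.0519).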

How the results depend on the processing

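The share of genes called higher depended on library scaling. As deposited 10662 genes were higher and 2739 lower in tumours, against 6546 and 6114 after median ratio scaling and 6812 and 5562 after quantile normalization. For luc tumours the counts were 6336 and 5954 after the first and 6559 and 5414 after the second, and for lucOS tumours 6359 and 5956, and 6616 and 5394. Leaving out 1 library in turn gave 10535 to 10665 higher and 2678 to 2751 lower. Between lucOS and luc, leaving out 1 library gave 0 to 1 higher and 0 to 2 lower, AL51 tumours alone 5 and 5, and AL54 tumours alone 1 and 3.

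Of 1955 values for 152 genes of the text, 1904 kept their direction and side of the threshold, 11 lost their call, 24 gained one and 16 changed sign. After median ratio scaling the sign changed for Lfng (-0.35), Id3 (-0.87), Mxd1 (-0.0406), Mxd4 (-0.76), Shmt2 (-0.44) and Xist (-0.41). After quantile normalization it changed for Lfng (-0.57), Id3 (-0.10), Mxd1 (-0.23) and Mxd4 (-0.12). Without small RNA genes and the top 50 it changed for Id3 (-0.18) and Mxd4 (-0.0757), with AL54 tumours alone for Tbx3 (0.0447) and Afp (0.63), and without the 3 tumours that stood apart for Lfng (-0.043) and Tbx3 (0.10). List medians changed sign under the 2 scalings, in that order, for NOTCH processing (-0.28, -0.0063), survival regulators (-0.19, -0.21) and endothelium (-0.49, -0.43). The cause was not tested. All 7 isoenzyme shares described kept direction and call under every alternative run for them (42 values, and 126 leaving out 1 library). Tumours and healthy livers do not overlap in any of these pairs, so leaving out libraries could not have changed direction or call. No value for the constructs apart was made in the 2-group fit. No paired analysis was possible because tumours and healthy livers carry different animal numbers and each library is taken as 1 animal.

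TPM without counts gives no depth, so levels near 0 have no stated floor. Tumour and healthy animals have separate number series, and age and time are not labelled, so these cannot be told apart from tissue.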
